A study of Mus musculus with 27 samples.

Results

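The transcripts of the aminoacyl-tRNA synthetase genes were measured in mouse splenic B cells that had been activated and treated with disulfiram (DSF). The set was defined by gene name alone: protein-coding genes named with the letter of an amino acid followed by "ars", together with Eprs, Ears2, Pars2, Fars2, Farsa, Farsb and Tarsl2. This rule found 38 of the 54532 genes in the count tables. Of these, 21 were taken as cytosolic and 17, whose names end in 2, as mitochondrial. Tarsl2 (threonyl-tRNA synthetase-like 2) was kept with the cytosolic enzymes, because its 2 does not mark the mitochondrial enzyme. All 38 genes had enough counts to be tested in every comparison.

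B cells from the spleen of wild-type C57BL6 mice were cultured for 3 h, and their polyadenylated RNA was sequenced. In the first experiment, 5 groups of 4 libraries each were made: unstimulated cells, cells stimulated with lipopolysaccharide (LPS, a T-independent stimulus), cells stimulated with IL-4+anti-CD40 (a T-dependent stimulus), and each stimulus in the presence of 1 µM DSF. The unstimulated and the stimulated groups without DSF received vehicle (DMSO), and no group received DSF without a stimulus. The second experiment held 1 library for each of the same 5 conditions and 1 for each stimulus with 1 µM ibrutinib, an inhibitor of the B-cell kinase BTK. These are primary cells in short culture. The study calls the samples of a group biologically independent, and neither it nor the labels say whether they came from separate mice, so that the p-values below measure the spread between these libraries.

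Aminoacyl-tRNA synthetases join each amino acid to its transfer RNA and so supply the ribosome with charged tRNAs. Nuclear genes encode both the enzymes of the cytosol and those that are imported into mitochondria for the translation of mitochondrially encoded respiratory chain subunits, and most amino acids have a separate gene for each compartment. Several cytosolic enzymes sit together in the multi-tRNA synthetase complex, and many cytosolic synthetase genes are known targets of the transcription factor ATF4, which acts when amino acids are short or when the endoplasmic reticulum or mitochondria are under stress. Gars and Kars each give rise to both a cytosolic and a mitochondrial enzyme from a single gene.

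ATF4 and its partners bind the CCAAT-enhancer binding protein-ATF response element (CARE), and 7 promoter stretches are shown because they hold this motif or belong to the genes with a known promoter window that DSF raised or lowered most. RefSeq promoter windows (GRCm38.p6, 250 bases before to 50 after the transcript start) were at hand for 28 of the 38 genes, 14 cytosolic and 14 mitochondrial. The stretches below run from 70 bases before to 30 after the start, or from 150 before for Aars, on the strand of the gene and from 5′ to 3′, and capitals mark the CARE core TGATGNAA and the E-box CACGTG on either strand. The start that RefSeq gives for Aars lies within the Aars gene as annotated in the count table.
Aars (chr8:111033692-111033871, plus strand): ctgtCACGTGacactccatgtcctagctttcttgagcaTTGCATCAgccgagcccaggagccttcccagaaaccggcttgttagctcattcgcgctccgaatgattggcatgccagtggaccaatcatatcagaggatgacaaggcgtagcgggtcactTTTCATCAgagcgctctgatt
Gars (chr6:55037931-55038030, plus strand): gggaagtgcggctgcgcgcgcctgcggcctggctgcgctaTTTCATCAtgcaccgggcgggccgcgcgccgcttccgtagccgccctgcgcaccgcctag
Iars (chr13:49682060-49682159, plus strand): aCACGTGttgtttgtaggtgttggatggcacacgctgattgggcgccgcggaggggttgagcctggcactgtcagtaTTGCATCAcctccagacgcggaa
Tars (chr15:11399629-11399728, minus strand): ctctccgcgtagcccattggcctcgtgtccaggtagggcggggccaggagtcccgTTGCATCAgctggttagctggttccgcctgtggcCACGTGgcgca
Yars (chr4:129189833-129189932, plus strand): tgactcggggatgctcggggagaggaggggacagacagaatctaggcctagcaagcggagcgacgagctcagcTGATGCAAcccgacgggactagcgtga
Sars (chr3:108445230-108445329, minus strand): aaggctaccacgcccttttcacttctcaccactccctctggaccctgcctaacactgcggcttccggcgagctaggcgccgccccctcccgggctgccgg
Vars2 (chr17:35667563-35667662, minus strand): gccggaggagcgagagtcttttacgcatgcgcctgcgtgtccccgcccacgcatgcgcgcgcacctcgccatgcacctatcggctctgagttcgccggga

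The CARE core was found in 5 members, all cytosolic (Aars, Gars, Iars, Tars and Yars), and in none of the 14 mitochondrial members with a window. Over all 32851 promoter windows of the same length, 3.969% held it. The first base of the match lay at −112 and +10 in Aars, −30 in Gars, +8 in Iars, −15 in Tars and +4 in Yars, counted from the transcript start. It was read as the reverse complement except in Yars. The E-box CACGTG was found in Aars, Iars, Tars, Farsb and Ears2, against 7.15% of all windows and 8.093% of all genes with a window. The motifs do not overlap in these windows. The stretches of Sars, a cytosolic gene that rose with DSF, and of Vars2, a mitochondrial gene that fell, held neither motif. These matches describe the letters of the windows only.

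Total counts lay between 17804851 and 23632992 per library in the first experiment and between 16049295 and 24619776 in the second, and the 38 synthetases took 62464 to 146108 and 69197 to 170530 of them. The unstimulated libraries fell into 2 pairs. In them 14.6% of 11465 expressed genes, and 8 synthetases, all cytosolic, ranged over at least 2-fold within the group in TMM-normalized CPM (a scaling that assumes most genes unchanged), and in these synthetases libraries 1 and 2 lay above libraries 3 and 4. The cytosolic median differed by 0.58 on the log2 scale between these pairs and the mitochondrial median by −0.04. Cell type markers split with the same pairs. The 5 neutrophil markers summed to 76.3 and 77.0 FPKM (fragments per kilobase of transcript, as calculated by the authors) in libraries 1 and 2 and to 15.3 and 20.6 in libraries 3 and 4. The 6 erythroid markers summed to 3.73 and 2.97 against 15.6 and 17.7, and the 6 B-cell markers to 2431 and 2384 against 3235 and 3218. Their part in the split of the synthetases was not tested. The IL-4+anti-CD40 libraries also lay closer within these pairs (chi-square per gene of 3.49 and 6.41) than across them (15.6 to 27.2), with cytosolic and mitochondrial medians 0.13 and 0.11 higher in libraries 1 and 2, but no synthetase ranged over 2-fold within any group other than the unstimulated one. The comparisons of the stimuli with unstimulated cells are therefore also given with either pair alone, an alternative chosen after seeing the data. All 6 B-cell markers were present in every group, with a summed FPKM of 2384 to 3235 in unstimulated cells, 1589 to 1620 with LPS, 1128 to 1202 with LPS+DSF, 1476 to 1711 with IL-4+anti-CD40 and 1238 to 1329 with IL-4+anti-CD40+DSF. The 6 T-cell markers summed to 1.58 to 6.22 in all groups. The 5 myeloid markers summed to 315 to 439 in unstimulated cells, 71.4 to 81.6 with LPS, 77.1 to 80.4 with LPS+DSF, 93.8 to 112 with IL-4+anti-CD40 and 113 to 158 with IL-4+anti-CD40+DSF. In bulk RNA, fewer cells of a type and less RNA per cell cannot be told apart.

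In unstimulated B cells the synthetase genes covered a wide range of levels. Among the cytosolic genes, Vars (valyl-tRNA synthetase) was highest at 97.7 ± 16.9 FPKM (mean ± SD, n = 4), followed by Nars (asparaginyl) at 57.3 ± 23.9 and Gars (glycyl) at 35.2 ± 13.5. Nars lay above Gars in 4 of 4 libraries, by 1.51- to 1.71-fold, although their ranges over the libraries overlapped, and the libraries of Vars and Nars did not overlap. Tarsl2 was the lowest at 1.20 ± 0.248 FPKM. The mitochondrial genes were mostly lower and ran from Lars2 (leucyl) at 16.6 ± 3.65 and Hars2 (histidyl) at 12.6 ± 1.57 down to Nars2 at 1.38 ± 0.135 FPKM. The classes overlapped: the mean of Lars2 lay above that of cytosolic genes such as Tars (16.2 ± 5.99) and Cars (9.75 ± 6.34), and that of Tarsl2 below Nars2. Nars took the first place among the cytosolic genes in the other 4 groups, with 128 ± 4.46 FPKM in LPS, 172 ± 6.78 in LPS+DSF, 201 ± 9.17 in IL-4+anti-CD40 and 212 ± 14.4 in IL-4+anti-CD40+DSF. Lars2 stayed the highest mitochondrial gene except with LPS, where Yars2 (tyrosyl) had 12.4 ± 0.296 FPKM and Lars2 12.2 ± 3.07, with Yars2 the higher in 2 of the 4 libraries.

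LPS raised most cytosolic synthetases within 3 h, while the mitochondrial genes were called higher or lower about as often as all genes. Of the 21 cytosolic genes, 17 rose and 2 fell against unstimulated cells, with a median log2 fold change of 1.02. Of the 17 mitochondrial genes, 6 rose and 5 fell, with a median of −0.03. Over the 38 genes this makes 23 higher and 7 lower (edgeR's quasi-likelihood test, Benjamini-Hochberg adjusted p under 0.05), beside 29.6% of 14477 genes tested that were higher and 33.3% lower, and a median over all genes of −0.05. The number of lower genes was 3 to 6 with any 1 of the 8 libraries left out. Against unstimulated libraries 1 and 2 alone, 18 cytosolic genes were higher and 1 lower and 6 mitochondrial genes were higher and 4 lower, and against libraries 3 and 4 alone these were 18 and 2, and 5 and 7. When the counts were scaled by total counts in place of TMM (the trimmed mean of M values), the median of all genes moved by −0.23, the share of higher genes among all calls went from 47.1% to 31.2%, and 18 synthetases were higher and 11 lower.

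Rars, Tars and Iars, the arginyl-, threonyl- and isoleucyl-tRNA synthetases, rose furthest in response to LPS. Rars stood at 24.5, 24.0, 17.7 and 18 FPKM in unstimulated libraries 1 to 4 and at 57.6, 58.5, 59.0 and 55.1 FPKM with LPS. Tars stood at 20.8, 22.0, 11.0 and 11.0 FPKM without stimulus and at 44.6, 44.4, 42.8 and 42.7 FPKM with LPS. Iars went from 33.3, 33.6, 15.4 and 15.1 FPKM to 60.7, 59.8, 55.5 and 61.0 FPKM. For all 3 genes every LPS library lay above every unstimulated library, and in Tars and Iars the unstimulated libraries 3 and 4 were the lowest. The log2 fold changes, each with its standard error (SE), were 1.47 ± 0.11 SE, adjusted p = 9.33e-06 for Rars, 1.45 ± 0.23 SE, adjusted p = 0.000579 for Tars and 1.30 ± 0.27 SE, adjusted p = 0.00262 for Iars in edgeR. With unstimulated libraries 1 and 2 alone the value of Rars was 1.27 and with libraries 3 and 4 alone 1.72. Yars (tyrosyl), Cars (cysteinyl) and Nars followed with log2 fold changes of 1.30, 1.29 and 1.18. The rise of Cars depended most on the choice of unstimulated libraries, with 0.65 against libraries 1 and 2 and 2.49 against libraries 3 and 4, and its call was lost without LPS library 1 or LPS library 2 (edgeR adjusted p = 0.0526 to 0.0542). Sars (seryl) and Vars were the cytosolic genes without a call, at 0.30 ± 0.14 SE, adjusted p = 0.0785, and 0.10 ± 0.12 SE, adjusted p = 0.506 in edgeR. Qars (glutaminyl) and Tarsl2 fell by 0.25 and 0.56 on the log2 scale. The call of Tarsl2 was lost in 6 of the 8 fits that left out 1 library (LPS library 2, 3 or 4, or unstimulated library 1, 3 or 4), with an edgeR adjusted p of 0.0568 to 0.0951.

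Among the mitochondrial genes, Cars2 and Yars2 moved furthest with LPS, in opposite directions. Cars2 fell from 2.62, 2.82, 4.07 and 3.79 FPKM in the unstimulated libraries to 0.949, 1.16, 0.969 and 1.19 FPKM. Yars2 rose from 7.27, 6.21, 5.99 and 6.56 FPKM to 12, 12.6, 12.5 and 12.5 FPKM. Neither gene had overlapping groups. In edgeR these changes were −1.63 ± 0.17 SE, adjusted p = 6.28e-05 for Cars2 and 0.94 ± 0.07 SE, adjusted p = 1.16e-05 for Yars2. Cars2 differed in the same direction against either pair of unstimulated libraries (−1.32 and −1.85). The other mitochondrial calls were smaller: Nars2 rose by 0.57, while Fars2 (phenylalanyl) fell by 0.54. The call of Fars2 was lost without LPS library 1, 2 or 4 or unstimulated library 3 or 4 (edgeR adjusted p = 0.0862 to 0.116). Of the 8 fits that left out 1 library, Ears2 and Aars2, called higher, lost their calls in 6 and 5. Pars2 and Vars2, called lower, lost theirs in 6 and 7.

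IL-4+anti-CD40 likewise raised most cytosolic genes. It raised 18 and lowered 1 of the 21 cytosolic genes, with a median log2 fold change of 1.20, and raised 8 and lowered 3 of the 17 mitochondrial genes, with a median of 0.15. Together 26 synthetases were higher and 4 lower, beside 30.4% and 32.1% of 14433 genes tested and a median over all genes of −0.04. The number of lower genes was 2 to 5 with 1 library left out. Among the mitochondrial rises, Mars2 and Wars2 each lost their call in 6 of the 8 fits that left out 1 library, and Ears2 in 4. Against unstimulated libraries 1 and 2 alone, the cytosolic genes stood at 18 higher and 1 lower and the mitochondrial ones at 8 and 2, and against libraries 3 and 4 alone at 18 and 3, and 5 and 3. Under total counts the median of all genes moved by −0.15, the share of higher calls went from 48.6% to 38.3%, and 22 synthetases were higher and 6 lower. Both stimuli were compared with the same unstimulated libraries.

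Yars, Cars and Aars (alanyl) rose furthest with IL-4+anti-CD40. Yars stood at 14.0, 13.9, 6.56 and 6.70 FPKM in the unstimulated libraries and at 43.6, 45.1, 41.8 and 39.5 FPKM after stimulation. Cars rose from 14.9, 15.6, 4.47 and 4.05 FPKM to 37.6, 39.2, 40.1 and 41.6 FPKM. Aars rose from 17.5, 17.9, 7.56 and 7.31 FPKM to 46.3, 51.8, 47.3 and 51.0 FPKM. In each gene the unstimulated libraries 3 and 4 were the lowest of all and the stimulated libraries lay above every unstimulated one. Their log2 fold changes were 2.07 ± 0.26 SE, adjusted p = 0.00014 for Yars, 2.05 ± 0.43 SE, adjusted p = 0.00262 for Cars and 1.99 ± 0.30 SE, adjusted p = 0.000395 for Aars in edgeR. Against unstimulated libraries 1 and 2 alone the value of Yars was 1.61, and against libraries 3 and 4 it was 2.70. Tars, Nars and Iars rose by 1.92, 1.84 and 1.79 on the log2 scale. Sars, which was not called with LPS, rose by 1.12 ± 0.14 SE with edgeR adjusted p = 0.000138. Vars again had no call (−0.04 ± 0.14 SE, adjusted p = 0.823, edgeR). Qars was the cytosolic gene that fell, by 0.20 on the log2 scale, and its call was lost without IL-4+anti-CD40 library 3 or 4 or unstimulated library 1 (edgeR adjusted p = 0.0605 to 0.0722).

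Cars2 and Yars2 again led the mitochondrial genes. Cars2 had 1.14, 0.967, 1.14 and 1.16 FPKM with IL-4+anti-CD40, below each of the unstimulated values given above. Yars2 had 15.1, 14.3, 12.4 and 10.9 FPKM, above each of the unstimulated ones. The log2 fold changes were −1.58 ± 0.17 SE, adjusted p = 5.96e-05 for Cars2 and 1.04 ± 0.12 SE, adjusted p = 9.32e-05 for Yars2 in edgeR. Fars2 fell by 0.78 and Rars2 (arginyl) rose by 0.69. The call of Fars2 was lost without IL-4+anti-CD40 library 3 (edgeR adjusted p = 0.0513). The myeloid marker sum was lower in every stimulated library than in every unstimulated one. Most of this sum was Lyz2, with means of 335 FPKM in unstimulated cells and 74.0 with IL-4+anti-CD40. Csf1r, Adgre1 and Itgam also had lower means with IL-4+anti-CD40, but Cd68 did not (15.5 and 15.6 FPKM). The part of these markers in the synthetase changes was not tested.

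**Figure D1:**
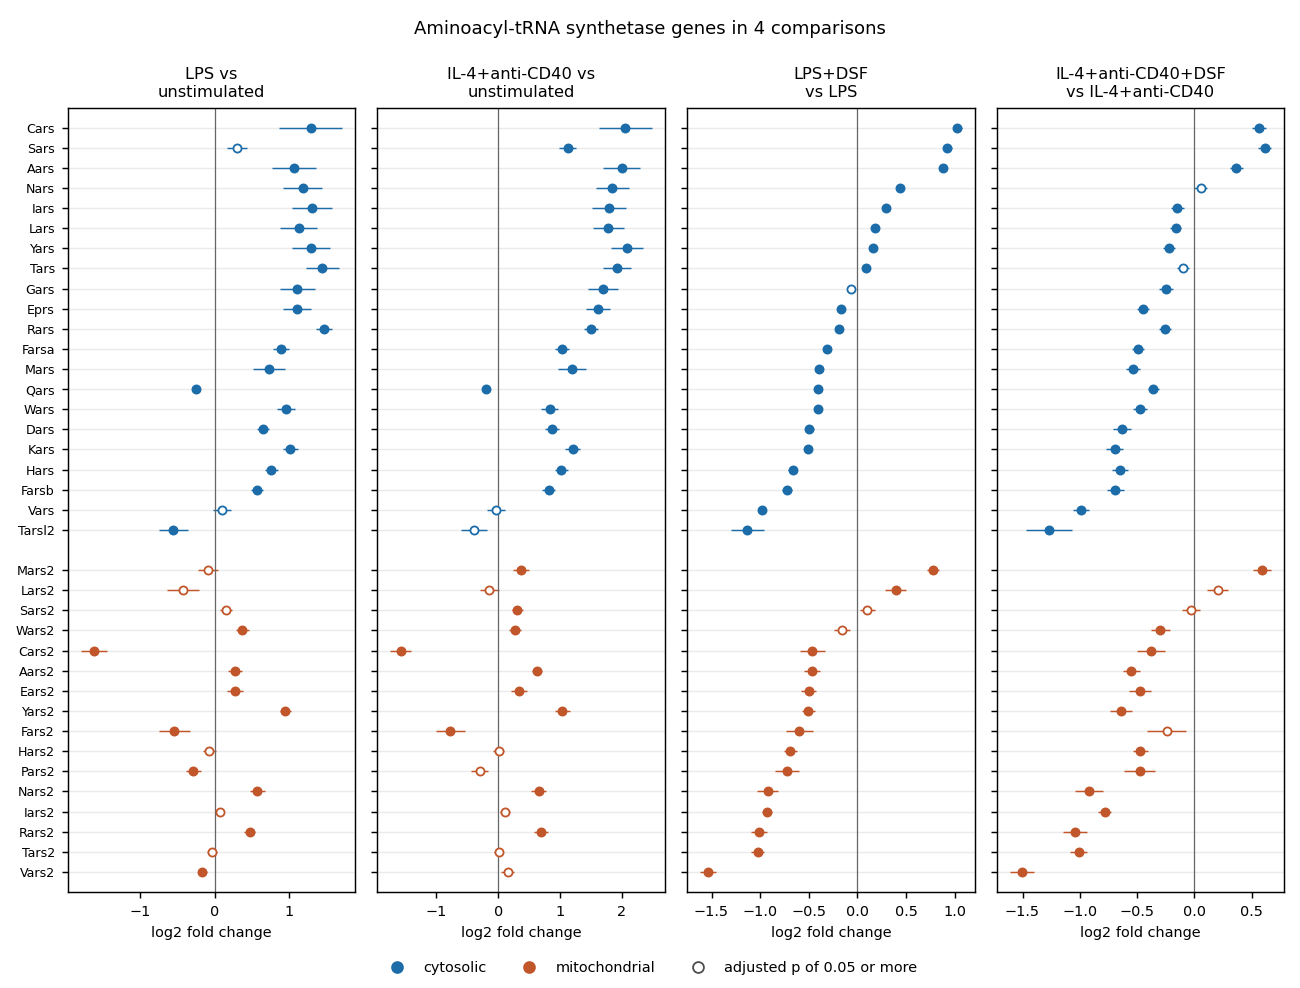
Log2 fold change (edgeR, x axis) of 37 of the 38 synthetases (rows) in the 4 main comparisons, with bars of ± 1 SE; filled points had an adjusted p under 0.05 and open points did not. The cytosolic genes lie mostly to the right of 0 with both stimuli (17 and 18 of 21 higher), and the mitochondrial genes lie mostly to the left of 0 with DSF (13 of 17 lower under either stimulus).

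Compared directly, the stimuli differed mainly in the cytosolic genes. With LPS, 2 cytosolic genes were higher and 13 lower than with IL-4+anti-CD40, and of the mitochondrial genes none was higher and 3 were lower. These are 2 and 16 of 38, beside 22.3% of 14078 genes tested that were higher and 17.3% lower. Aars was lowest relative to IL-4+anti-CD40 with a log2 change of −0.87 ± 0.05 SE, adjusted p = 4.08e-08 in edgeR, followed by Sars at −0.76, Yars at −0.72 and Cars at −0.71. Each of these 4 genes had no overlap between the groups. Vars and Wars (tryptophanyl) were the genes higher with LPS, by 0.20 and 0.19. The call of Vars was lost without IL-4+anti-CD40 library 3 or 4 or LPS library 1, 2 or 4 (edgeR adjusted p = 0.064 to 0.0871), and that of Wars without IL-4+anti-CD40 library 3 or LPS library 1, 2 or 3 (edgeR adjusted p = 0.0629 to 0.0798). The mitochondrial genes lower with LPS were Mars2 (methionyl) at −0.41, Aars2 at −0.29 and Vars2 at −0.26. The call of Vars2 was lost without IL-4+anti-CD40 library 1 or 2 or LPS library 2, 3 or 4 (edgeR adjusted p = 0.0535 to 0.0817). Under total counts the median of all genes moved by −0.13, the share of higher calls went from 56.3% to 34%, and no synthetase was higher and 23 were lower.

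DSF lowered most mitochondrial synthetases of LPS-stimulated cells, while the cytosolic ones were called higher about as often as all genes. Of the 21 cytosolic genes 8 rose and 12 fell against LPS alone, with a median log2 fold change of −0.19, and of the 17 mitochondrial genes 2 rose and 13 fell, with a median of −0.60. Together 10 synthetases were higher and 25 lower, beside 35.1% and 36% of 14154 genes tested and a median over all genes of 0.00. Under total counts the median of all genes moved by −0.21, the share of higher calls went from 49.4% to 34.2%, and 5 synthetases were higher and 28 lower. All 6 B-cell markers were lower in every library with DSF. The T-cell markers summed to 1.78 to 2.5 FPKM with LPS and to 4.35 to 6.22 with LPS+DSF, but Trac alone was higher (1.05 to 1.76 and 4.11 to 5.87), and the other 5 had lower means and summed to 0.539 to 1.01 and 0.246 to 0.447. The neutrophil markers summed to 18.7 to 20.6 with LPS and 24.3 to 27.5 with LPS+DSF. Of these 5 markers, 4 had a higher mean with DSF and 1 a lower one, and 1 was higher in every library. Of the 5 myeloid markers, Itgam and Cd68 were higher in every library with DSF and the other 3 had lower means. The part of these markers in the synthetase values was not tested.

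Cars was the gene that rose furthest with DSF in LPS-stimulated cells. It stood at 24.0, 24.6, 22.7 and 22.6 FPKM with LPS and at 47.5, 43.4, 49.3 and 48.5 FPKM with LPS+DSF, a 2.04-fold change. Tarsl2 fell from 1.01, 0.771, 0.673 and 0.772 FPKM to 0.436, 0.323, 0.403 and 0.301 FPKM. Vars fell from 106, 105, 98.6 and 107 FPKM to 52.1, 51.6, 52.7 and 50.9 FPKM. The groups did not overlap in any of the 3 genes, and for Vars and Cars the 4 libraries of a group lay close together. The log2 fold changes were 1.03 ± 0.05 SE, adjusted p = 2.78e-16 for Cars, −1.13 ± 0.17 SE, adjusted p = 2.72e-06 for Tarsl2 and −0.98 ± 0.04 SE, adjusted p = 4.53e-17 for Vars in edgeR. Sars rose from 34.5, 33.3, 33.8 and 35.1 FPKM to 63.4, 59.7, 66.6 and 66.5 FPKM (0.93 ± 0.04 SE). Aars rose from 26.1, 25.7, 25.5 and 26.3 FPKM to 44.8, 44.8, 48.4 and 49.9 FPKM (0.88 ± 0.04 SE). The groups did not overlap in either gene. The count of Aars can hold reads of Exosc6, a gene on the same strand with which it shares 14.3% of its exon bases.

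Nars, Iars, Lars (leucyl), Yars and Tars also rose, by 0.44, 0.29, 0.18, 0.16 and 0.09 on the log2 scale. Lars, Yars and Tars changed sign under total counts (−0.03, −0.05 and −0.12). The call of Tars was lost in 7 of the 8 fits without 1 library, all but the one without LPS+DSF library 1 (edgeR adjusted p = 0.104 to 0.302). Farsb, a subunit of the phenylalanyl-tRNA synthetase, fell by 0.73, and Farsa, its partner subunit, by 0.31. The remaining cytosolic falls lay between −0.67 (Hars, histidyl) and −0.16 (Eprs, which joins glutamyl- and prolyl-tRNA synthetase in a single protein). Gars was not called (−0.07 ± 0.04 SE, adjusted p = 0.129, edgeR).

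The mitochondrial gene that fell furthest was Vars2. It stood at 5.44, 5.40, 4.97 and 5.30 FPKM with LPS and at 1.98, 1.79, 1.66 and 1.74 FPKM with LPS+DSF. Tars2 (threonyl) fell from 8.55, 8.70, 7.86 and 7.28 FPKM to 4.18, 3.85, 4.25 and 3.47 FPKM. Neither gene had overlapping groups. The log2 fold changes were −1.54 ± 0.08 SE, adjusted p = 7.2e-15 for Vars2 and −1.03 ± 0.07 SE, adjusted p = 1.35e-12 for Tars2 in edgeR. Rars2 and Iars2 fell by 1.01 and 0.93. Iars2 shares 22.9% of its exon bases with Rab3gap2 on the opposite strand, and without strand the reads of both cannot be told apart. Mars2 rose from 3.68, 2.94, 3.40 and 3.29 FPKM to 5.54, 5.36, 5.8 and 5.84 FPKM, a log2 change of 0.78 ± 0.06 SE, adjusted p = 2.08e-11 in edgeR. The other mitochondrial gene that rose was Lars2, at 0.39 ± 0.11 SE, adjusted p = 0.00211 in edgeR. Its call was lost under total counts (0.18, adjusted p = 0.133), in DESeq2 (0.40, adjusted p = 0.065) and with all 20 libraries in one edgeR fit (0.37, adjusted p = 0.0557). The groups of Mars2 did not overlap.

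In cells stimulated with IL-4+anti-CD40, DSF lowered most synthetases of both kinds. It lowered 16 and raised 3 of the 21 cytosolic genes, with a median log2 fold change of −0.36, and lowered 13 and raised 1 of the 17 mitochondrial genes, with a median of −0.48. Together 4 were higher and 29 lower, beside 30.1% and 31.6% of 14275 genes tested and a median over all genes of −0.02. Under total counts the median of all genes moved by −0.15, the share of higher calls went from 48.8% to 35.9%, and 4 synthetases were higher and 30 lower. Of the 6 B-cell markers 4 were lower and 2 higher in every library with DSF. The T-cell markers summed to 1.58 to 2.45 FPKM without DSF and to 4.01 to 4.92 with it, but the 5 other than Trac summed to 0.273 to 0.644 and 0.302 to 0.504. The myeloid sums were 93.8 to 112 without DSF and 113 to 158 with it, the neutrophil sums 12.3 to 17.2 and 19 to 23.0, and the erythroid sums 1.48 to 1.89 and 2.72 to 3.85. Means were higher with DSF in 5 of 5 myeloid, 3 of 5 neutrophil and 5 of 6 erythroid markers. In every library, 2 myeloid, 2 neutrophil and 0 erythroid markers were higher. The part of these markers in the synthetase values was not tested.

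Tarsl2, Vars and Kars (lysyl) fell furthest among the cytosolic genes. Tarsl2 fell from 1.05, 0.982, 0.892 and 0.672 FPKM with IL-4+anti-CD40 to 0.480, 0.419, 0.250 and 0.368 FPKM with DSF added. Vars fell from 98.6, 105, 87.4 and 84.4 FPKM to 46.8, 46.4, 48.1 and 50.5 FPKM. Kars fell from 60.5, 66.6, 54.7 and 51.8 FPKM to 36.9, 35, 35.8 and 38.4 FPKM. In all 3 genes every library with DSF lay below every library without it. In log2 terms the falls were −1.27 ± 0.20 SE, adjusted p = 0.000213 for Tarsl2, −0.99 ± 0.07 SE, adjusted p = 1.25e-06 for Vars and −0.70 ± 0.07 SE, adjusted p = 8.44e-06 for Kars in edgeR. Farsb, Hars and Dars (aspartyl) fell by 0.69, 0.65 and 0.63. The genes that rose were Sars, Cars and Aars. Sars went from 58.7, 59.9, 57.9 and 63.2 FPKM to 87.9, 89.6, 95.9 and 99.0 FPKM, a log2 change of 0.62 ± 0.06 SE, adjusted p = 4.56e-06 in edgeR. Cars went from 37.6, 39.2, 40.1 and 41.6 FPKM to 54.7, 57.9, 61.8 and 63.2 FPKM (0.56 ± 0.06 SE), and Aars had a log2 change of 0.37 ± 0.06 SE. The groups of Sars and of Cars did not overlap. Nars and Tars had no call, at 0.06 ± 0.06 SE, adjusted p = 0.439, and −0.10 ± 0.05 SE, adjusted p = 0.132 in edgeR.

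The mitochondrial Vars2 fell from 6.81, 7.6, 5.96 and 5.78 FPKM to 2.04, 2.65, 2.28 and 2.35 FPKM with DSF. Rars2 fell from 16.1, 14.8, 11.5 and 13.8 FPKM to 7.41, 6.29, 6.87 and 7.03 FPKM. The groups did not overlap in either gene. These falls were −1.51 ± 0.11 SE, adjusted p = 1.29e-06 for Vars2 and −1.04 ± 0.10 SE, adjusted p = 6.71e-06 for Rars2 on the log2 scale in edgeR. Tars2, Nars2 and Iars2 fell by 1.01, 0.92 and 0.78. Mars2 was the mitochondrial gene that rose, from 4.49, 4.18, 4.56 and 5.00 FPKM to 7.11, 7.61, 6.21 and 6.95 FPKM (0.59 ± 0.08 SE, adjusted p = 4.99e-05, edgeR). Lars2, Sars2 and Fars2 had no call, with 0.20, −0.03 and −0.24.

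**Figure D2:**
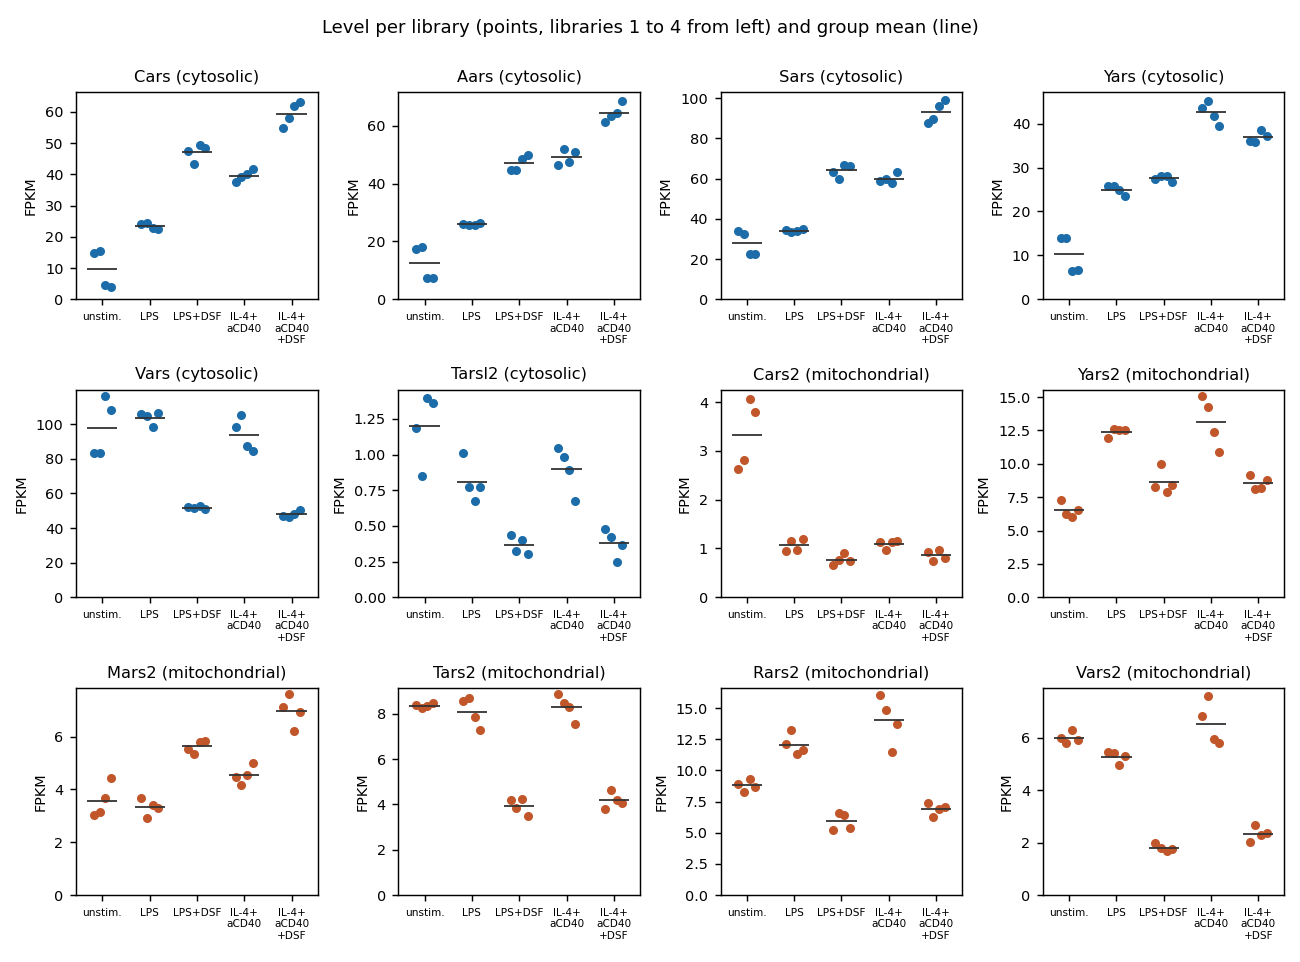
Deposited FPKM (y axis, linear, from 0) of 12 synthetases in each of the 20 libraries of the first experiment by group, each point 1 library and each horizontal bar the mean of 4. Cars, Aars and Sars stand higher with DSF than without under both stimuli, Vars, Tarsl2, Vars2, Tars2 and Rars2 stand lower, and the unstimulated points of Cars and Aars fall into 2 pairs.

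DSF moved 3 cytosolic genes (Aars, Cars and Sars) and 1 mitochondrial gene (Mars2) upward under both stimuli, and 12 cytosolic and 12 mitochondrial genes downward under both. The share of all genes called the same way under both stimuli was not computed. With all 20 libraries in one edgeR fit, the rises of Aars (0.43, adjusted p = 0.0823) and Cars (0.62, adjusted p = 0.0733) under IL-4+anti-CD40 lost their calls. Iars, Lars and Yars rose with DSF in LPS-stimulated cells and fell with DSF in cells given IL-4+anti-CD40. Iars stood at 71.4, 71.3, 73.3 and 70.03 FPKM with LPS+DSF, and at 83.7, 87.6, 80.2 and 78.4 FPKM with IL-4+anti-CD40 against 74.0, 76.2, 70.7 and 81.1 FPKM when DSF was added. The last 2 sets of libraries lie close together, and the fall of Iars (log2 fold change −0.15) lost its call in 6 fits without 1 library (IL-4+anti-CD40 or IL-4+anti-CD40+DSF library 1, 2 or 3; edgeR adjusted p = 0.0518 to 0.131). The fall of Lars (−0.16) lost its call without IL-4+anti-CD40 library 2 (edgeR adjusted p = 0.0556).

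The difference between the DSF effects was tested as an interaction over the 16 stimulated libraries. The effect was more positive with LPS in 8 synthetases, all cytosolic, and more positive with IL-4+anti-CD40 in none, beside 7.92% and 6.96% of 15130 genes tested. The 8 were Aars (0.51 ± 0.07 SE, adjusted p = 7.55e-05), Cars (0.46 ± 0.08 SE, adjusted p = 0.00044), Iars (0.43 ± 0.07 SE), Nars (0.38 ± 0.07 SE), Yars (0.38 ± 0.07 SE), Lars (0.34 ± 0.06 SE), Sars (0.30 ± 0.07 SE) and Eprs (0.28 ± 0.07 SE), all from edgeR. With all 20 libraries in one edgeR fit all 8 calls were lost (adjusted p = 0.395 to 0.645), with log2 values of 0.20 to 0.43, and 1 other synthetase was called in favour of IL-4+anti-CD40. In 4 of these genes, Aars, Cars, Sars and Nars, the log2 fold change with DSF was positive under both stimuli.

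Against unstimulated cells, the DSF-treated groups held raised cytosolic and lowered mitochondrial synthetase transcripts. With LPS+DSF, 14 cytosolic genes were higher and 3 lower than in unstimulated cells, and 3 mitochondrial genes were higher and 10 lower. Over all 38 genes this is 17 and 13, beside 34.3% and 37.3% of 14663 genes tested. With IL-4+anti-CD40+DSF, 17 cytosolic genes were higher and 3 lower, and 3 mitochondrial genes were higher and 9 lower, which makes 20 and 12 beside 33.4% and 35.3% of 14678 genes. Cars was the highest in both (2.29 and 2.62 on the log2 scale), and Cars2 the lowest (−2.12 and −1.94). Qars, Tarsl2 and Vars were the cytosolic genes below unstimulated cells in both, with Vars at −0.91 and −1.02. Mars2, Sars2 and Yars2 were the mitochondrial genes above, with Yars2 at 0.41 and 0.41. The call of Sars2 with LPS+DSF was lost in 7 of the 8 fits without 1 library, all but the one without LPS+DSF library 2 (edgeR adjusted p = 0.0514 to 0.149). Under total counts the medians of all genes moved by −0.41 and −0.31, the shares of higher calls went from 47.9% to 29.7% and from 48.6% to 31.6%, and the synthetases stood at 9 higher and 20 lower, and at 12 higher and 15 lower.

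**Figure D3:**
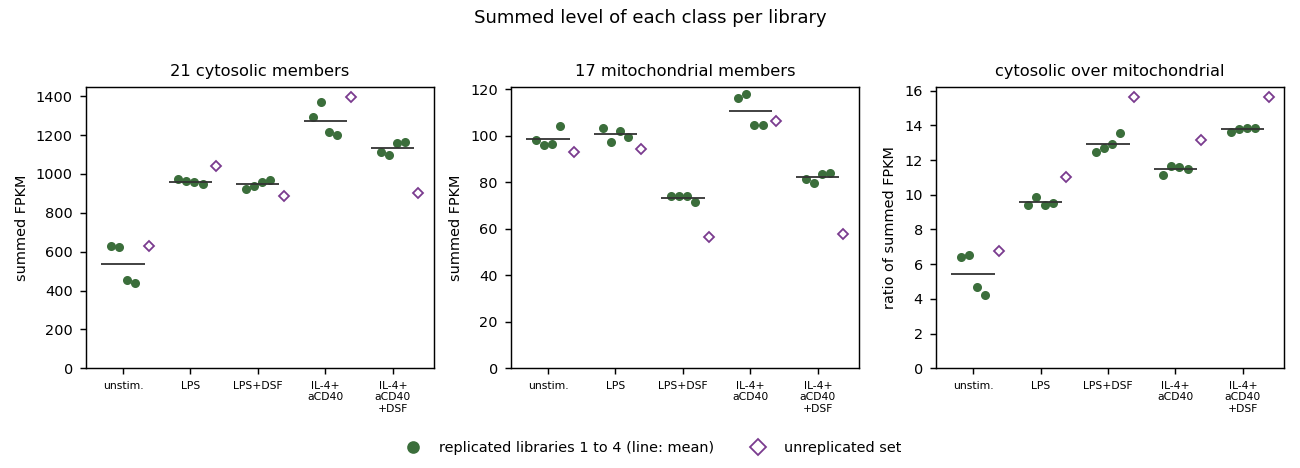
Summed FPKM of the 21 cytosolic and of the 17 mitochondrial synthetases and the ratio of these sums (y axes from 0) in each library of the 5 groups. Each filled point is 1 library of the first experiment, each horizontal bar their mean (n = 4) and each open diamond the 1 library of the second experiment. In the first experiment the ratio rises from 5.46 in unstimulated cells to 9.56 and 11.5 with the stimuli and to 12.9 and 13.8 with DSF added.

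Summed over members, the cytosolic genes reached 537 ± 104 FPKM in unstimulated cells, 961 ± 9.08 with LPS, 946 ± 20.8 with LPS+DSF, 1270 ± 78.5 with IL-4+anti-CD40 and 1133 ± 34.0 with IL-4+anti-CD40+DSF (mean ± SD, n = 4 each). In the deposited FPKM, whose scaling is not that of total counts, the cytosolic sum was thus within its spread between LPS and LPS+DSF. Single genes rose and fell on either side. Under total counts the median of all genes moved by −0.21 in this comparison. The mitochondrial genes summed to 98.7 ± 3.82, 101 ± 2.80, 73.4 ± 1.39, 111 ± 7.14 and 82.1 ± 2.01 FPKM in the same order. Every library with DSF lay below every library without it in the mitochondrial sum. The ratio of the cytosolic to the mitochondrial sum was 5.46 ± 1.16 in unstimulated cells, 9.56 ± 0.23 with LPS, 12.9 ± 0.48 with LPS+DSF, 11.5 ± 0.24 with IL-4+anti-CD40 and 13.8 ± 0.11 with IL-4+anti-CD40+DSF. Since a few abundant genes such as Nars and Gars carry much of the cytosolic sum, the sums do not stand for the typical member.

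The enzymes for the same amino acid could be set against each other in 17 pairs of a cytosolic and a mitochondrial gene. They held 16 distinct cytosolic genes, since Eprs stands against both Ears2 and Pars2. Fars2 was set against Farsa, not against the other subunit, Farsb. When DSF was added to LPS, Farsa (−0.31) lay above Fars2 (−0.60) and Farsb (−0.73) below it, so the side of this pair depends on the subunit. The cytosolic gene had the higher log2 fold change in 17 of 17 pairs under LPS, in 16 under IL-4+anti-CD40, in 14 when DSF was added to LPS and in 12 when it was added to IL-4+anti-CD40, with median differences of 0.83, 1.28, 0.63 and 0.42. Both comparisons with unstimulated cells share those libraries, and each DSF comparison shares its vehicle libraries with the comparison of that stimulus. The cysteinyl pair was the widest apart, since Cars rose and Cars2 fell with either stimulus (1.29 and −1.63 with LPS), and with DSF in LPS-stimulated cells Cars rose by 1.03 while Cars2 fell by 0.46. The methionyl pair ran the other way with DSF, as Mars fell by 0.39 and 0.54 and Mars2 rose by 0.78 and 0.59 under LPS and IL-4+anti-CD40. The valyl pair fell together, with −0.98 for Vars and −1.54 for Vars2 with LPS+DSF. The cytosolic median minus the mitochondrial median was 1.05 under either stimulus, 0.41 when DSF was added to LPS and 0.12 when it was added to IL-4+anti-CD40. Against unstimulated libraries 1 and 2 alone the first 2 of these were 0.61 and 0.85, and against libraries 3 and 4 alone they were 1.22 and 1.55.

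The 8 enzymes of the multi-tRNA synthetase complex (Dars, Eprs, Iars, Kars, Lars, Mars, Qars and Rars) rose with the stimuli except Qars, with 7 higher and 1 lower in each comparison. With DSF, 2 rose and 6 fell in LPS-stimulated cells, and all 8 fell in cells given IL-4+anti-CD40, with medians of −0.29 and −0.40, beside 35.1% of all genes higher and 36% lower in the first comparison and 30.1% and 31.6% in the second. The 3 scaffold subunits of the complex, Aimp1, Aimp2 and Eef1e1, fell with DSF under both stimuli, Aimp2 furthest with −0.99 ± 0.08 SE and −1.02 ± 0.09 SE. Of the 13 cytosolic members outside the complex, DSF raised 6 and lowered 6 in LPS-stimulated cells, and raised 3 and lowered 8 under IL-4+anti-CD40. By structural class, 6 of 18 class I enzymes rose and 11 fell with LPS+DSF, and 4 of 19 class II enzymes rose and 13 fell, beside the same 35.1% and 36%. Eprs, which holds an enzyme of either class, was left out.

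The promoters with a CARE core belonged to cytosolic genes that rose with both stimuli. Of these 5 genes, 5 rose with LPS (1.06 to 1.45 on the log2 scale) and 5 with IL-4+anti-CD40 (1.70 to 2.07). Of the 9 cytosolic genes whose window held none, 6 rose and 2 fell with LPS (−0.56 to 1.10), and under IL-4+anti-CD40 7 rose and 1 fell (−0.39 to 1.61). With DSF in LPS-stimulated cells, 4 of the 5 genes with the motif rose and none fell (−0.07 to 0.88), whereas 1 of the 9 without it, Sars, rose and 8 fell. Of the 4 that rose, Tars lost its call in 7 of the 8 fits without 1 library, and Tars and Yars changed sign under total counts (−0.12 and −0.05) and had log2 ratios of −0.24 and −0.23 in the second experiment. With DSF and IL-4+anti-CD40, 1 of the 5 rose and 3 fell, and 1 of the 9 rose and 8 fell. Among all genes tested, LPS raised 29.6% and lowered 33.3%, and DSF added to LPS raised 35.1% and lowered 36%. The T-dependent stimulus raised 30.4% and lowered 32.1%, while DSF on top of it raised 30.1% and lowered 31.6%. The groups of 5 and 9 genes are small and the difference between them was not tested. Cars, Nars and Lars, which also rose with LPS+DSF, had no window.

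Genes that act beside the synthetases in tRNA charging and translation moved as follows. The 13 accessory and editing genes, which deacylate, transamidate or repair tRNAs, fell with DSF in 13 of 13 cases in LPS-stimulated cells and in 12 of 13 under IL-4+anti-CD40, with medians of −0.81 and −0.85, beside 36% and 31.6% of all genes lower. Mtfmt, which formylates the mitochondrial initiator methionyl-tRNA, fell by 1.07 and 0.92. All 4 mitochondrial elongation factors fell under both stimuli, Tsfm furthest with −1.37 ± 0.09 SE and −1.29 ± 0.12 SE. Of the 5 cytosolic elongation factors, 3 rose and 1 fell in each comparison, with Eef2 at 0.50 and 0.41, beside 35.1% and 30.1% of all genes higher.

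Of 20 genes known from the ATF4 response, 19 were tested. The stimuli raised 13 and lowered 1 of them (LPS) and raised 16 and lowered none (IL-4+anti-CD40), beside 29.6% and 30.4% of all genes higher. DSF raised 14 and lowered 3 in LPS-stimulated cells, with a median of 0.56, and raised 10 and lowered 6 in cells given IL-4+anti-CD40, with a median of 0.15. Over all genes 35.1% were higher and 36% lower in the first of these comparisons and 30.1% and 31.6% in the second, so that the share lowered under IL-4+anti-CD40 is that of all genes. Ddit3, which encodes the stress-induced factor CHOP, stood at 11.6, 12.7, 11.3 and 10.3 FPKM with LPS and at 42.7, 44.2, 46.3 and 49.8 FPKM with LPS+DSF. Slc3a2, a subunit of amino acid transporters, stood at 54.1, 55.3, 58.2 and 55.0 FPKM and at 210.3, 207, 227 and 234 FPKM. Their log2 fold changes were 2.01 ± 0.06 SE and 2.00 ± 0.05 SE under LPS, and 1.24 ± 0.10 SE and 1.41 ± 0.12 SE under IL-4+anti-CD40. Atf4 itself rose by 0.56 and 0.39. The list did not move as one: Shmt2, a mitochondrial enzyme of serine metabolism, fell by 0.45 and 0.69, and Asns, the asparagine synthetase, had 0.17 with LPS (not called) and fell by 0.24 with IL-4+anti-CD40. In the interaction over the 16 stimulated libraries, 10 of the 19 had a DSF effect more positive with LPS and 1 the reverse, beside 7.92% and 6.96% of all genes.

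**Figure D4:**
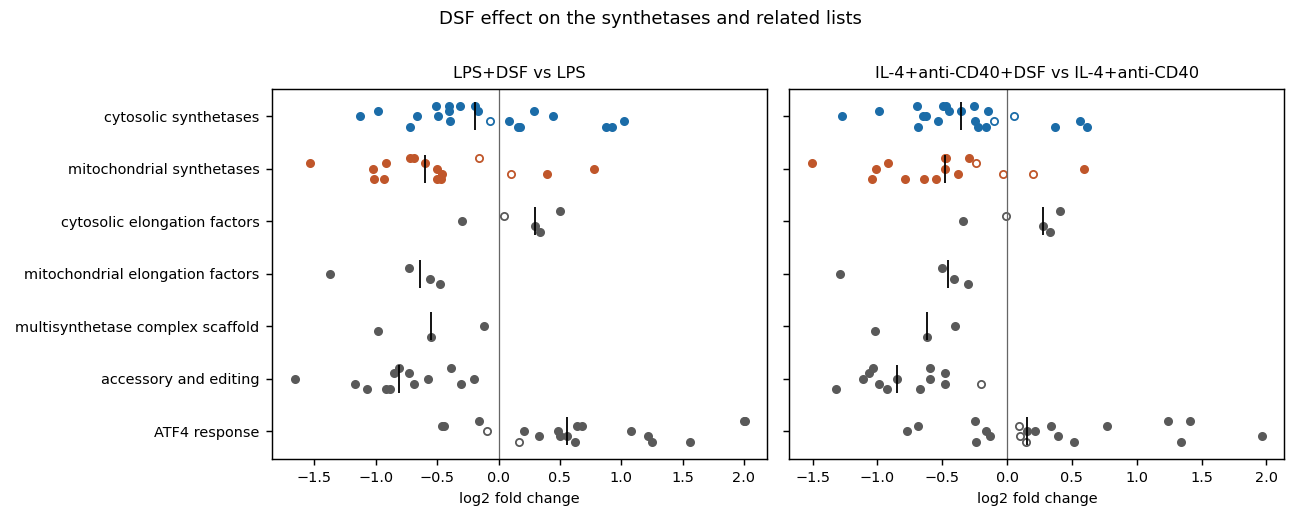
Log2 fold change with DSF (edgeR, x axis) of the members of each gene list (rows) under LPS (left) and under IL-4+anti-CD40 (right), each point 1 gene (16 of the 17 mitochondrial synthetases are drawn), open where the adjusted p was 0.05 or more, and each vertical tick the list's median. The mitochondrial synthetases, the accessory genes and the mitochondrial elongation factors lie mostly to the left of 0, while the ATF4 response genes have medians of 0.56 and 0.15.

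The second experiment had 1 library per condition, so its values have no replicate check, and ratios were read against a change of at least 2-fold. With LPS+DSF, 30 of 38 synthetases lay below LPS alone, 15 of them by at least 2-fold and 4 above by at least 2-fold, beside 19.5% and 20.3% of 14275 genes. The median log2 ratio was −0.73 for the synthetases and −0.04 for all genes. With IL-4+anti-CD40+DSF, 32 lay below, 18 by at least 2-fold and 1 above, beside 20.3% and 21.9%, with medians of −0.98 and −0.01. Of the 14275 genes, 7329 lay below their control with LPS+DSF and 7185 with IL-4+anti-CD40+DSF. The mitochondrial medians were −0.95 and −1.26 and the cytosolic ones −0.61 and −0.92.

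The genes above their control by at least 2-fold with LPS+DSF were Sars, Mars2, Aars and Cars. Sars stood at 43.1 FPKM with LPS and 99.9 FPKM with LPS+DSF, a log2 ratio of 1.22 (counting interval 1.17 to 1.27), where the exact 95% interval covers counting error only. Aars stood at 34.9 and 79.4 FPKM, and Cars at 30.3 and 64.2 FPKM. Mars2 stood at 2.39 and 5.49 FPKM, with a log2 ratio of 1.20 (counting interval 1.05 to 1.36). These are the genes that were higher with DSF under both stimuli in the first experiment. Kars stood at 48.9 FPKM with LPS and 12.8 with LPS+DSF (−1.92 (counting interval −2.03 to −1.82)), where its log2 fold change in the first experiment was −0.51. Rars2 stood at 11.6 and 2.66 FPKM, and Pars2 (prolyl) at 2.78 and 0.618 FPKM. With IL-4+anti-CD40, Kars went from 61.3 to 14.7 FPKM and Vars2 from 7.11 to 1.75 FPKM.

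Of the synthetases called with DSF in the first experiment, 17 of 20 cytosolic and 15 of 15 mitochondrial genes had the same sign in the second for LPS, and 19 of 19 and 13 of 14 for IL-4+anti-CD40. The exceptions were Lars, Tars and Yars with LPS, which had log2 ratios of −0.16, −0.24 and −0.23 after small rises in the first experiment, and Cars2 with IL-4+anti-CD40 at 0.33. The share of all called genes with the same sign in both experiments was not computed. These counts are therefore not read as particular to the synthetases. The experiments were normalised separately, and their levels were not compared. In the second experiment the erythroid markers summed to 36.7 FPKM with LPS and 92.4 with LPS+DSF, and to 34.1 with IL-4+anti-CD40 and 81.0 with DSF added. In the same order the myeloid markers summed to 15.2, 32, 18.4 and 33.7 FPKM, the neutrophil markers to 0.886, 2.71, 1.14 and 2.77, the T-cell markers to 3.72, 8.17, 2.44 and 5.82, and the B-cell markers to 1942, 1248, 1659 and 1345. These sums were not split by gene, and in the first experiment the T-cell sum rose with DSF through Trac. The part of these markers in the ratios was not tested.

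Ibrutinib moved no synthetase by 2-fold. When it was added to LPS, 31 of 38 lay below LPS alone with a median log2 ratio of −0.11, and when it was added to IL-4+anti-CD40, 28 lay below with a median of −0.11, while the medians over all genes were 0.01 and 0.00. Of all 14275 genes, 6933 lay below their control for LPS and 7039 for IL-4+anti-CD40. Among all genes, 2.47% were lower and 2.81% higher by at least 2-fold for LPS, and 1.69% and 2.23% for IL-4+anti-CD40. Yars2 was furthest from its control at −0.49 (counting interval −0.64 to −0.34), followed by Mars2 at −0.47 (counting interval −0.65 to −0.28), both with LPS. Cars had log2 ratios of −0.04 (counting interval −0.10 to 0.02) and 0.04 (counting interval −0.01 to 0.09) with ibrutinib and 1.09 (counting interval 1.03 to 1.14) and 0.52 (counting interval 0.47 to 0.58) with DSF. Vars2 had 0.05 (counting interval −0.12 to 0.21) and 0.13 (counting interval −0.00 to 0.27) with ibrutinib. Both compounds were given at 1 µM for the same 3 h, and each pair shares its vehicle library.

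**Figure D5:**
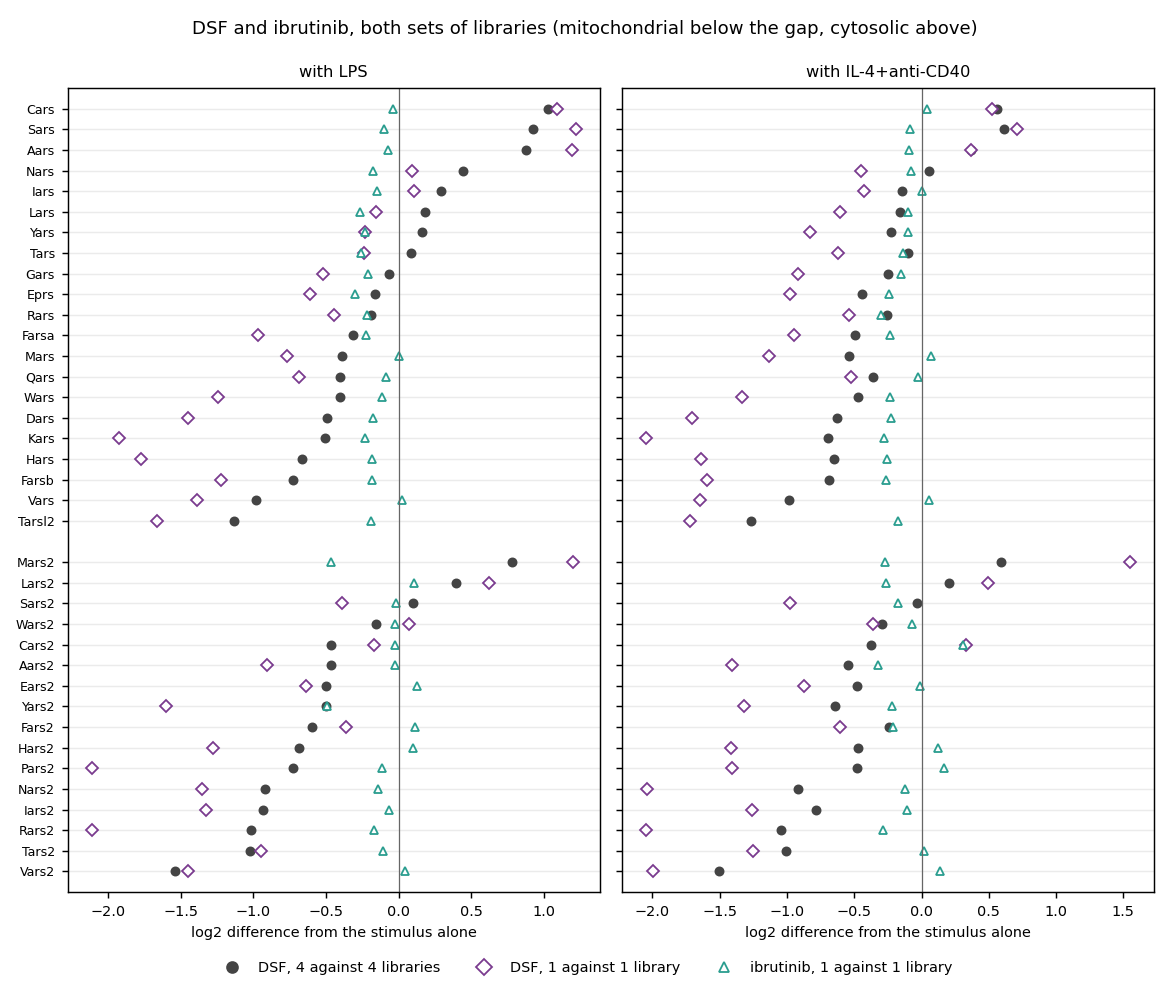
Log2 change (x axis) of 37 of the 38 synthetases (rows) under LPS (left) and IL-4+anti-CD40 (right), with DSF in the first experiment (filled circles, edgeR, 4 libraries per group), with DSF in the second (open diamonds, 1 library per condition) and with ibrutinib in the second (open triangles). The ibrutinib values lie between −0.49 and 0.31, while the DSF values of the second experiment reach from −2.11 to 1.55.

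The stimuli alone were also measured in the second experiment. Against its 1 unstimulated library, 24 of 38 synthetases lay above under LPS and 29 under IL-4+anti-CD40, with median log2 ratios of 0.43 and 0.82 beside −0.01 and −0.02 over all genes. Of all 14275 genes, 7052 lay above under LPS and 7033 under IL-4+anti-CD40. The cytosolic medians were 0.73 and 1.12 and the mitochondrial ones −0.10 and 0.13. Cars2 stood at 2.47 FPKM in unstimulated cells, 1.15 under LPS and 0.944 under IL-4+anti-CD40. Yars2 stood at 6.12, 13.2 and 12 FPKM. Aars and Cars, whose unstimulated libraries fell into pairs in the first experiment, stood at 19.3 and 16 FPKM in the unstimulated library of the second.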

How the data were processed

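RNA of mouse splenic B cells was sequenced by the study in 20 libraries of a first and 7 of a second experiment. The deposited counts per gene are raw, made by the authors with Fastp, HISAT2 2.0.5 (mm10) and featureCounts 1.5.0-p3. The FPKM per gene were calculated by the authors and deposited beside them. How they were scaled between libraries is not described in the study's methods, and they do not follow total counts. Lars, Tars and Yars had higher mean FPKM with LPS+DSF than with LPS, while their log2 changes under total counts were negative. The annotation release and the strand setting are not given in the sources used here. Positions and exon overlaps come from GENCODE vM21, in which 35 of the 38 members had the start, end and exon length of the tables, and 15 shared exon bases with another gene. Promoters come from RefSeq.

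Total counts per library are given in the report. Counts of the 8 libraries of a comparison (16 for the interaction) were fitted with edgeR 4.0.16 in R 4.3.3 (TMM, filterByExpr, quasi-likelihood test), and p-values were adjusted over all genes tested (Benjamini-Hochberg, threshold 0.05). The SE of a log2 fold change was taken from its size and the F statistic. FPKM were used as levels only. The fit was first tried on simulated counts with known changes. The second experiment was TMM-normalized and compared as log2 ratios (prior count 2, mean of at least 10 counts), with exact 95% counting intervals and no test. Replicates were checked for duplicates by chi-square over genes, and none was found (2.86 to 90.7 per gene over 30 pairs).

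The members, the gene lists and the rules were chosen with earlier results of these data known. In each of the 4 main comparisons, values per library were given for the 3 cytosolic and 2 mitochondrial members with the largest absolute log2 fold change among those called, fold changes for up to 6 and 5, and names for calls against the majority of a class. Values of 1 member are not reported here by name. Other genes were named after their values were seen. Alternatives were DESeq2 1.42.0, edgeR with DESeq2's size factors or with total counts, filters of any count or at least 10 counts in every sample, a minimum log2 fold change of 1, all 20 libraries in one fit, a replicate block, and leaving out each library. Beside the markers given in the report, in the first experiment the neutrophil markers summed to 12.3 to 77.0 FPKM, the erythroid markers to 1.48 to 17.7 and the NK markers to 0.666 to 3.24.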

Additional observations from a re-analysis of the deposited data

Results flagged for a closer look

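In groups of 4 libraries, 7 of 200 sets of values had a highest or lowest library far from the others (Dixon's 95% value, where chance gives about 1 in 20). These were Cars2 with 0.967 FPKM in IL-4+anti-CD40 library 2, Fars2 with 0.659 FPKM in LPS+DSF library 3, Nars with 215 FPKM in IL-4+anti-CD40 library 2, Nars2 with 2.27 FPKM in LPS library 1, Pars2 with 3.45 FPKM in IL-4+anti-CD40 library 2 and Yars2 with 11.97 FPKM in LPS library 1. The seventh was the mitochondrial sum of 71.3 FPKM in LPS+DSF library 4. IL-4+anti-CD40 library 2 holds 3 of the 7.

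The effect of DSF differed between the stimuli by the interaction test in 8 cytosolic genes, each with a more positive log2 effect in LPS-stimulated cells, and none kept this call with all 20 libraries in one fit. The differences were 0.51 for Aars, 0.46 for Cars, 0.43 for Iars, 0.38 for Nars, 0.38 for Yars, 0.34 for Lars, 0.30 for Sars and 0.28 for Eprs. A pattern in the second experiment could not be tested with 1 library per condition.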

How the results depend on the processing

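Of the values of single members under the other settings (without leaving out libraries), 1417 kept their direction and side of the threshold, 89 lost their call and 6 changed sign. With 1 library left out, 1673 kept both and 119 lost their call, and with either pair of unstimulated libraries 232 kept both and 12 lost it. The 6 changes of sign came with total counts: Lars −0.030, Tars −0.12 and Yars −0.050 (LPS+DSF against LPS), Sars2 −0.18 (LPS+DSF against unstimulated), and Dars −0.065 and Sars2 −0.024 (IL-4+anti-CD40+DSF against unstimulated).

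With a minimum log2 fold change of 1, which by construction drops smaller changes, the synthetases higher and lower were 11 and 1 under LPS, 16 and 1 under IL-4+anti-CD40, 1 and 5 with LPS+DSF against LPS, 0 and 4 with IL-4+anti-CD40+DSF against IL-4+anti-CD40, 0 and 0 for LPS against IL-4+anti-CD40, 10 and 7 for LPS+DSF against unstimulated, 11 and 6 for IL-4+anti-CD40+DSF against unstimulated, and 0 for the interaction. With total counts, which shift all genes downward, 11 were lower with LPS, 5 higher with LPS+DSF against LPS, 0 higher for LPS against IL-4+anti-CD40, 9 higher and 20 lower for LPS+DSF and 12 higher for IL-4+anti-CD40+DSF against unstimulated, and 1 had a DSF effect higher with IL-4+anti-CD40. With all 20 libraries in one fit, 5 were higher with LPS+DSF, 2 with IL-4+anti-CD40+DSF and 0 for LPS against IL-4+anti-CD40, and the interaction gave 0 in favour of LPS and 1 in favour of IL-4+anti-CD40, and the cause was not tested. DESeq2's size factors, and a filter of at least 10 counts in every sample, each gave 1 synthetase with a DSF effect higher with IL-4+anti-CD40, and the cause was not tested.

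The difference of the class medians was 0.61 with LPS against unstimulated libraries 1 and 2, 1.55 with IL-4+anti-CD40 against libraries 3 and 4, and 0.21 with IL-4+anti-CD40+DSF when Tarsl2 was put in the mitochondrial class or 0.19 when means were taken in place of medians. With 1 library left out, the number lower with LPS was 3 to 6, the number lower with IL-4+anti-CD40 was 2 to 5, the number higher for LPS against IL-4+anti-CD40 was 0 to 2, and the number with a DSF effect higher with IL-4+anti-CD40 was 0 to 1.

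Same-numbered libraries were not correlated throughout. For IL-4+anti-CD40+DSF against IL-4+anti-CD40 the correlations were 0.33 and 0.31 for libraries 1 and 4, and −0.01 and 0.00 for libraries 2 and 3. In the other comparisons they ran from −0.06 to 0.12. Among the IL-4+anti-CD40+DSF libraries, the chi-square per gene was 3.79 for libraries 1 and 2, 6.28 for libraries 3 and 4, and 5.56 to 10.5 across these pairs. Structure shared by replicate number was examined only with a replicate block. With a replicate block, 4 synthetases were lower with LPS and 8 had the interaction call, and no other count moved by over 1.5 times. The total counts of both experiments were alike, and the second is limited by its 1 library per condition.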
